A study of Homo sapiens with 2 samples.

Results

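The regions described here are stretches of the genome at transcription start sites (TSSs) where the chromatin remodeller SMARCA4 gave more sequencing tags in an EZH2 inhibitor-resistant (EIR) clone than in its parental line. They are the 494 regions, of the 2104 in the deposited EIR-higher list, that lie off chromosome Y with their nearest edge within 1 kb of the TSS of any annotated transcript, or 23.7% of the 2083 regions of that list that are not on chromosome Y. The members were chosen by the tags of both libraries, because every listed region had passed a Poisson test of EIR tags against parental tags. Their tags and ratios are therefore given as a description and carry no test. The 2 deposited lists hold 12896 regions together.

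TOV21G is an ovarian clear cell carcinoma (OCCC) line with mutated ARID1A. The parental group was TOV21G cells, and the EIR group was the resistant clone numbered 3, selected from TOV21G by raising the EZH2 inhibitor GSK126 from 5 to 20 µM. In both groups SMARCA4, also named BRG1, carried a FLAG epitope added at its endogenous locus by CRISPR, with single colonies picked, and chromatin was immunoprecipitated with an anti-FLAG antibody. There was 1 library per group, so each group is a single picked line, no difference has a replicate check, and clone, library and drug resistance cannot be told apart. The parental library held about 25600000 tags and the EIR library, by the spacing of its scaled values, about 35000000. EIR tags are given scaled to the parental total, with 1 EIR tag worth 0.733, a value read from that spacing. Intervals are 95% and cover counting error within these libraries only.

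SMARCA4 is an ATPase of the SWI/SNF complexes, which slide or evict nucleosomes and so open promoters and enhancers, and ARID1A is a DNA-binding subunit of the same complexes. EZH2 is the methyltransferase of Polycomb complex PRC2, which places the silencing mark H3K27me3 and acts against SWI/SNF at many genes. A gene can have several TSSs, of which the outermost marks its 5′ end and the others are internal, and many but not all promoters lie in CpG islands, where the CpG dinucleotide is not depleted.

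The members with the most tags included several that hold a match to repressor element 1 (RE1), the element bound by REST, a repressor of neuronal genes in other cell types. The search was prompted by the strongest members. The lines below show exact matches in members of any strength, down to FBLL1 with 21.3 scaled EIR tags. Matches with 1 mismatch are shown only for members with at least 60 scaled EIR tags. Each line gives the 16-base match in capitals with 3 bases on either side, 5′ to 3′ on the strand of the match, from GRCh37. The first 8 lines are matches at all 14 specified positions and the last 5 have 1 mismatch. The exact match in the member at XKR4 is named only.

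NPAS4: attTCAGAACCGCGGACAGagc
MAST1: attTCAGCACCGCGGACAGgag
CELF4: tgaTCAGCACCATGGACAGgtc
LHX3: cctTCAGCACCGCGGACAGcgc
TLCD3B: ccgTCAGCACCACGGACAGggc
ANKRD34C: agtTCAGCACCTCGGACAGagc
ENSG00000287324: cgtTCAGAACCTCGGACAGcgc
FBLL1: tagTCAGCACCAGGGACAGcga
MIR7-3HG: tctTCAGCACGAGGGACAGctc
EPHA10: aatTCAGCACTGCGGACAGttc
IQSEC3P1: gctTAAGCACCACGGACAGctc
CHRNA4: aagTCAGCACCTTGGATAGctc
SST: gttTCAGCACCTGGGTCAGcgc

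The matches lie at chr11:66189342-66189357 (NPAS4, minus strand), chr19:12943365-12943380 (MAST1, plus), chr18:34850206-34850221 (CELF4, minus), chr9:139096985-139097000 (LHX3, minus) and chr16:30040140-30040155 (TLCD3B, plus). The next are at chr15:79576099-79576114 (ANKRD34C, plus), chr20:61747961-61747976 (ENSG00000287324, plus) and chr5:167955723-167955738 (FBLL1, minus). Those with 1 mismatch are at chr19:4769586-4769601 (MIR7-3HG, plus), chr1:38230130-38230145 (EPHA10, plus), chr12:2861946-2861961 (IQSEC3P1, minus), chr20:62010179-62010194 (CHRNA4, minus) and chr3:187387605-187387620 (SST, plus).

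The member at SST, the gene of the inhibitory peptide hormone somatostatin, also covers the proximal promoter with its cyclic AMP response element, the site through which CREB acts on this gene. The 80 bases before the annotated canonical start of SST (chr3:187388183-187388262, GRCh37, minus strand) are printed 5′ to 3′ with the element TGACGTCA in capitals. Its first base lies 47 bases before the TSS.

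SST promoter: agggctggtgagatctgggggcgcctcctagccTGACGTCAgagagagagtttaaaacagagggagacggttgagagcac

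A further strong member covers a start of MIR7-3HG, the host gene of the miR-7 precursor MIR7-3, whose own start is within 1 kb. miR-7 is best known from neurons and endocrine cells. Its mature sequence (RefSeq, GRCh38.p14) is shown with the seed, bases 2 to 8, in capitals.

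hsa-miR-7-5p: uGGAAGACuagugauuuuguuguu

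Most members were short and carried few tags. Of the 494, 373 (75.5%) had the minimum length of 500 bp, and 16 were longer than 1000 bp. The median member had 19.1 scaled EIR tags (95% interval 18.3 to 19.8, range 13.9 to 722.0) against 5 parental tags (5 to 6), a median ratio of 3.38 (3.26 to 3.38). In 277 members the EIR clone had under 20 scaled tags, and 18 members had at least 60. A ratio of at least 4 was reached by 149 members (30.2%), against 36.6% of all 2083 regions of the list outside chromosome Y. Since the list was made from this contrast, that share is given without a reading.

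**Figure D1:**
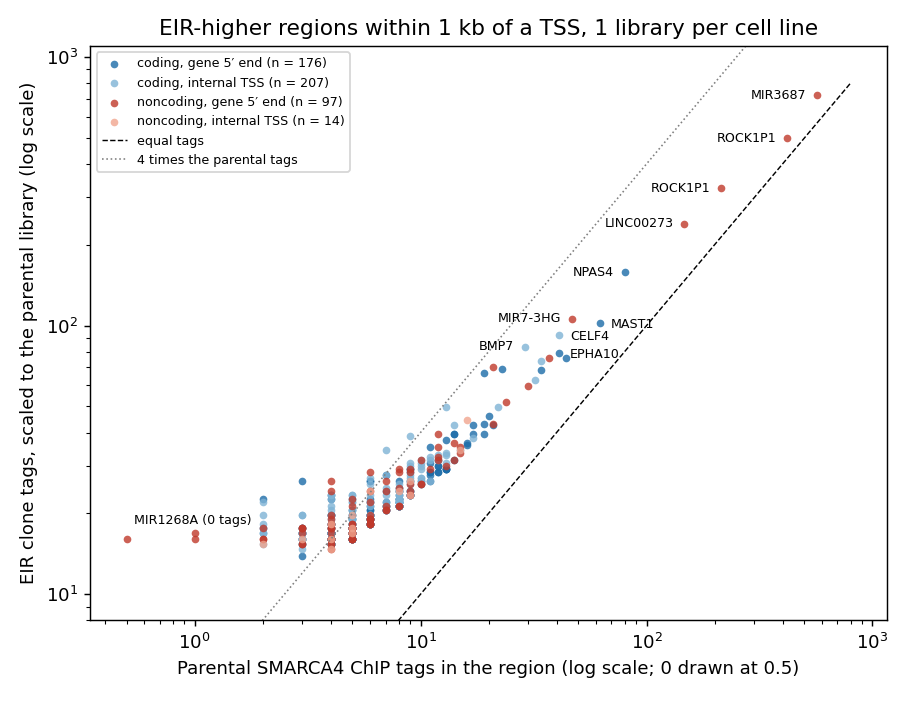
Scaled EIR tags (vertical axis, log scale) against parental tags (horizontal axis, log scale, 0 drawn at 0.5) for the 494 members, 1 point per region, coloured by class, with lines at equal tags and at 4 times the parental tags. The 10 members with the most tags and MIR1268A, the member with 0 parental tags, are named, and the ratio narrows from the weak members on the left to MIR3687 at 722.0 against 569 tags.

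The members fell into 4 classes. There were 207 (41.9%) at an internal TSS of a protein-coding gene, 176 (35.6%) at the 5′ end of a coding gene, 97 (19.6%) at the 5′ end of a noncoding gene and 14 (2.83%) at an internal noncoding TSS. Altogether 383 members (77.5%, 73.6 to 81.0) lay at a coding gene, and 46.0% of those (41.0 to 51.0) at its 5′ end. Among the 5196 parental-higher regions within 1 kb of a TSS the corresponding shares were 89.8% and 74.3%. The differences were -12.3 percentage points (-16.3 to -8.74) for coding genes and -28.3 points (-33.4 to -23.2) for their 5′ ends. The position class varied with the tags of the region. Below 20 tags, where most members lay, a coding 5′ end was at 33.6% of 277 members (28.3 to 39.3) and 37% of 443 parental-higher regions (32.7 to 41.6), with overlapping intervals. At 20 to 30 tags the shares were 39.9% (32.3 to 47.9) and 51.7% (48.6 to 54.8), and at 30 to 60 tags 33.3% (22 to 47) and 70.9% (68.9 to 72.9). Among noncoding members 87.4% were at a gene 5′ end, against 80.5% of the parental-higher regions, and this difference of 6.89 points had an interval that includes 0 (-1.2 to 13). The split depends on the annotation: with the canonical TSS of each gene alone, 307 members remained, and 72.6% of the coding ones were at the 5′ end. The share of parental-higher regions was not computed with canonical TSSs, so 72.6% has no counterpart here.

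**Figure D2:**
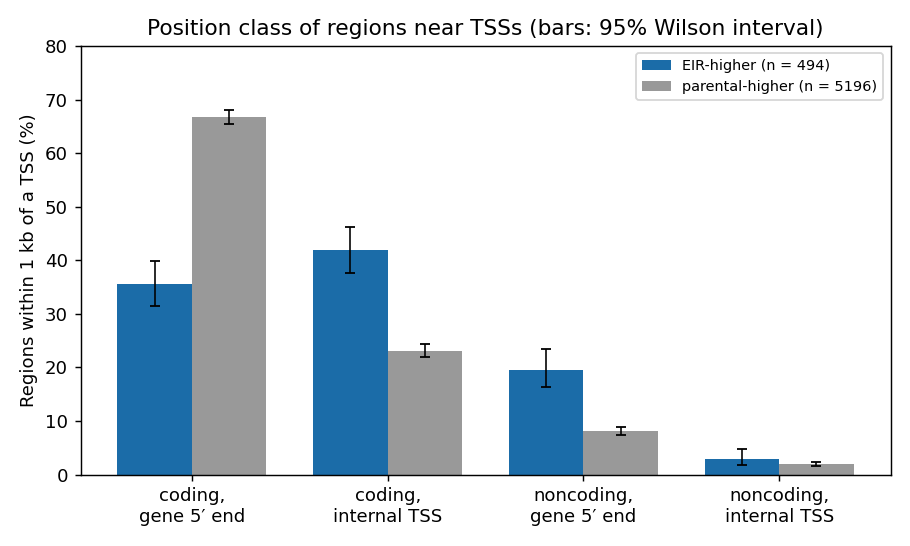
Share of regions within 1 kb of a TSS in each position class (vertical axis, percent), for EIR-higher regions (blue, n = 494) and parental-higher regions (grey, n = 5196), with 95% Wilson intervals. The blue bar is lower at coding gene 5′ ends (35.6% against 66.7%) and higher at internal coding TSSs (41.9% against 23.1%), while among regions below 20 tags the shares at coding 5′ ends were 33.6% and 37%.

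The members lay within 1 kb of TSSs of 593 annotated genes, of which 396 were protein-coding and 19 were miRNA genes, and lncRNA genes made up most of the rest. A single gene was within reach of 389 members and more than 1 gene of 105. There were 22 genes with more than 1 member. SYT15, a synaptotagmin gene on chromosome 10, had 4, which may share reads with its near copy SYT15B, and GRIN1, which encodes the obligate NMDA receptor subunit, and FRMD4A had 3 each.

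The strongest members lay at noncoding genes. The region at the microRNA genes MIR3687 and MIR3648 (chr21:9826817-9827703) gave 722.0 scaled EIR tags and 569 parental tags, a ratio of 1.27 (1.14 to 1.41). It lies 415624 bp from a large gap in the assembly. Directly beside it, and sharing 86 bp with it, the parental-higher list holds a region with 502.1 scaled EIR tags and 1017 parental tags, so the libraries differed in opposite directions across the same locus.

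The next strongest pair flank the start of ROCK1P1, a lncRNA gene derived from the kinase gene ROCK1, whose reads may also match ROCK1. The region upstream of its start (chr18:107747-108695) had 499.9 scaled EIR tags and 420 parental tags, a ratio of 1.19 (1.05 to 1.35). The region in its first intron (chr18:109522-111206) had 325.5 and 213, a ratio of 1.53 (1.29 to 1.81). Before the start of LINC00273 (chr16:33962537-33964163) there were 239.7 and 147 tags, a ratio of 1.63 (1.34 to 1.99). These 4 members combined the highest tags in both libraries with ratios below 1.7.

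The strongest members at coding genes followed. NPAS4 encodes a neuronal transcription factor induced by synaptic activity, and its member (chr11:66189125-66190155), centred in exon 2, had 158.3 scaled EIR tags and 80 parental tags (ratio 1.98, 1.52 to 2.59). A second and much weaker region before the NPAS4 start had 19.1 and 5 tags. The region at the host gene MIR7-3HG (chr19:4768426-4770136) had 106.3 and 47 tags (ratio 2.26, 1.62 to 3.21). MAST1, a microtubule-associated kinase gene, had 102.6 and 62 tags at the outermost of its 5′ ends (chr19:12943086-12943852), at -5860 bp from its canonical TSS, a ratio of 1.65 (1.22 to 2.27).

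Of the members at internal TSSs of coding genes, the one with the most tags was in intron 8 of CELF4 (chr18:34849604-34850950), the gene of a brain-enriched RNA-binding protein, with 92.4 scaled EIR tags and 41 parental tags (ratio 2.25, 1.57 to 3.29). BMP7 encodes a ligand of the TGF-beta family. Its member in intron 1 (chr20:55838037-55840651), 2614 bp and the longest of all members, had 83.6 and 29 tags (ratio 2.88, 1.9 to 4.49). KIAA1217 had 74.0 and 34 tags in intron 2 (chr10:24527801-24529755). At the 5′ end of EPHA10, an Eph receptor gene whose product lacks kinase activity, there were 79.2 and 41 tags (chr1:38229640-38230732, ratio 1.93, 1.34 to 2.84).

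Further members with over 60 scaled tags included those at CPLX2, CHRNA4, SST and IQSEC3P1. Others of that strength were at MAPK8IP2 (68.2 and 34 tags) and the solute carrier gene SLC16A9 (63.0 and 32). CPLX2, the gene of complexin 2, which regulates vesicle fusion, had 75.5 scaled EIR tags and 44 parental tags (ratio 1.72). CHRNA4, which encodes a nicotinic acetylcholine receptor subunit, had 68.9 and 23 tags at its outermost 5′ end (ratio 3.00, 1.88 to 4.95). SST had 66.7 and 19 tags across its start (chr3:187387320-187388622, ratio 3.51, 2.12 to 6.10). IQSEC3P1, a pseudogene that may share reads with IQSEC3, had 70.4 and 21 (ratio 3.35, 2.07 to 5.66). The genes of this paragraph were chosen after their values were seen, and no list of neuronal genes was tested.

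The members with the largest ratios were weak. MIR1268A (chr15:22512309-22512809) was the single member with 0 parental tags. It had 16.1 scaled EIR tags, from 22 tags as sequenced, which is 5.37 times a floor of 3 tags. The lower bound of its ratio was 4.02. MIR1268A is one of several near-identical microRNA genes. The lncRNA gene ENSG00000287173 had 16.9 scaled EIR tags against 1 parental tag (ratio 16.9, 2.74 to 694), and the pseudogene ENSG00000270533 had 16.1 against 1 (ratio 16.1, 2.61 to 666). With a single parental tag these intervals span more than a factor of 100.

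Of coding genes, RADX, whose product protects stalled replication forks, had the largest ratio, 11.3 (2.89 to 98), from 22.7 and 2 tags in exon 1 (chrX:105855031-105855663). POMT1, a protein O-mannosyltransferase gene, had 22.0 and 2 tags in intron 17 (chr9:134395779-134396419, ratio 11, 2.79 to 94.9). SENP2, the gene of a SUMO protease, had 18.3 and 2 tags. SOX15, MISP and the pseudogene ENSG00000220734 each had 17.6 and 2 tags, a ratio of 8.80 (2.18 to 76.8). SCNN1G, the gamma subunit of the epithelial sodium channel, had more tags behind its ratio, with 26.4 and 3 in intron 1 (chr16:23194276-23195040, ratio 8.80, 2.78 to 44.6), and before the start of RANBP3L there were 23.5 and 4 (ratio 5.88, 2.08 to 22.8). The lower bounds of these coding genes, 2.08 to 2.89, are near those of BMP7 and SST, which had many more tags. Over all 494 members, 55 (11.1%) had 3 or fewer parental tags.

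The 14 members at internal noncoding TSSs were led by ENSG00000258654 with 44.7 scaled EIR tags and 16 parental tags, MIR663AHG with 34.5 and 15, and HCG20 with 26.4 and 9. Their largest ratios were at LINC01524 (15.4 and 2 tags, ratio 7.70, 1.88 to 67.7), SSPOP (16.1 and 3, ratio 5.37, 1.61 to 28.1) and FAM170B-AS1 (18.3 and 4, ratio 4.58, 1.58 to 18.1). Across the 4 classes the median ratio ranged from 3.22 to 3.60.

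The scale between the libraries set how many members there were. With the EIR library scaled 1.5 times lower, 38 members still passed a Poisson p of 1e-04. These had a median of 21.6 scaled EIR tags as deposited (17.6 to 23.5) and 3 parental tags (2 to 4). Of them 21 lay at internal coding TSSs, 10 at noncoding 5′ ends, 6 at coding 5′ ends and 1 at an internal noncoding TSS. Those with the most tags were BMP7, IQSEC3P1, CHRNA4, SST, the calcium channel gene CACNA1H (49.8 and 13 tags, ratio 3.83, 2.10 to 7.57), the G protein subunit gene GNG2 (38.9 and 9, ratio 4.32) and HOXB2 (34.5 and 7, ratio 4.93). MIR3687, ROCK1P1, LINC00273, NPAS4, MIR7-3HG, MAST1, CELF4 and EPHA10 were not among the 38. Of the 26 members with an RE1 match of at most 1 mismatch in the region, 4 were kept, against 38 of all 494 members. Each of these 4 had 1 mismatch, so none of the 9 members with an exact match was kept. With so few exact matches, that count is too small to set against 38 of 494.

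At the edge of the 1 kb limit, the last members inside were MKX at 999 bp (25.7 scaled EIR tags and 6 parental tags), TDRD9 at 998 bp (15.4 and 4) and SOX15 at 995 bp. The first regions outside were PLCH2 at 1004 bp (45.4 and 15), PPP1R16A at 1014 bp (16.1 and 4) and MIR4480 at 1020 bp (16.9 and 5).

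The members were spread more widely around the TSS than the parental-higher regions were. A TSS lay inside 190 of 494 members (38.5%, 34.3 to 42.8) and inside 70.2% of the 5196 parental-higher regions (68.9 to 71.4), a difference of -31.7 points (-36.1 to -27.1). The centre of a member lay a median of 396 bp from the TSS (350 to 453), against 194 bp (186 to 204). Its median signed position was 63 bp downstream (15 to 95), and 55.5% of members were centred downstream. This difference varied with the tags of the region. Among regions with 20 to 30 tags in their higher library, 47.3% of 148 members (39.4 to 55.3) and 44.3% of 983 parental-higher regions (41.2 to 47.4) covered a TSS. With 30 to 60 tags the shares were 35.3% of 51 (23.6 to 49.0) and 72.5% of 1913 (70.4 to 74.4). Below 20 tags they were 33.6% and 30.9%, with overlapping intervals. Parental-higher regions were also longer, with a median of 698 bp.

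**Figure D3:**
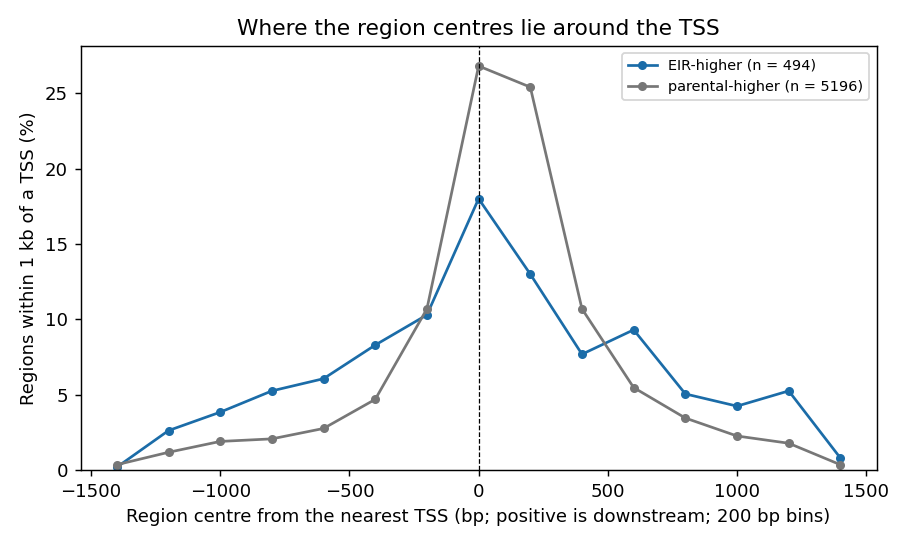
Position of region centres relative to the nearest TSS (horizontal axis, binned, in bp, positive downstream) as a percentage of the regions of each list. The parental-higher curve (grey) peaks at 26.8% in the bin at the TSS and the EIR-higher curve (blue) at 18%, with more of the EIR-higher regions in the outer bins.

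The GC content of the members was between that of parental-higher regions near TSSs and that of other EIR-higher regions, and near that of coding gene 5′ ends in general. In 500 bp around the centre, the median GC content was 59.5% (58.6 to 60.4), against 54.0% for the 445 EIR-higher regions 1 to 5 kb from a TSS, 49.1% for the 1144 farther away and 72.8% for parental-higher regions near TSSs. Around the 5′ ends of all 20098 coding genes it was 61.6%. The ratio of observed to expected CpG dinucleotides had a median of 0.41 in members, 0.25 and 0.21 in the other EIR-higher regions, and 0.85 in parental-higher regions at TSSs. A ratio of at least 0.6, one of the usual marks of a CpG island, was reached by 167 members (33.8%) and by 76.6% of the parental-higher regions, a difference of -42.8 points (-47.0 to -38.3). By class the share was 54.0% at coding 5′ ends, 26.1% at internal coding TSSs and 17.5% at noncoding 5′ ends, against 89.0%, 61.7% and 33.4% of the parental-higher regions of the same classes. The intervals again overlapped among weaker regions. With 20 to 30 tags the share was 50.7% of members (42.7 to 58.6) and 49.1% of parental-higher regions (46.0 to 52.3), and with 30 to 60 tags 47.1% (34.1 to 60.5) and 83.4% (81.7 to 85.0).

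**Figure D4:**
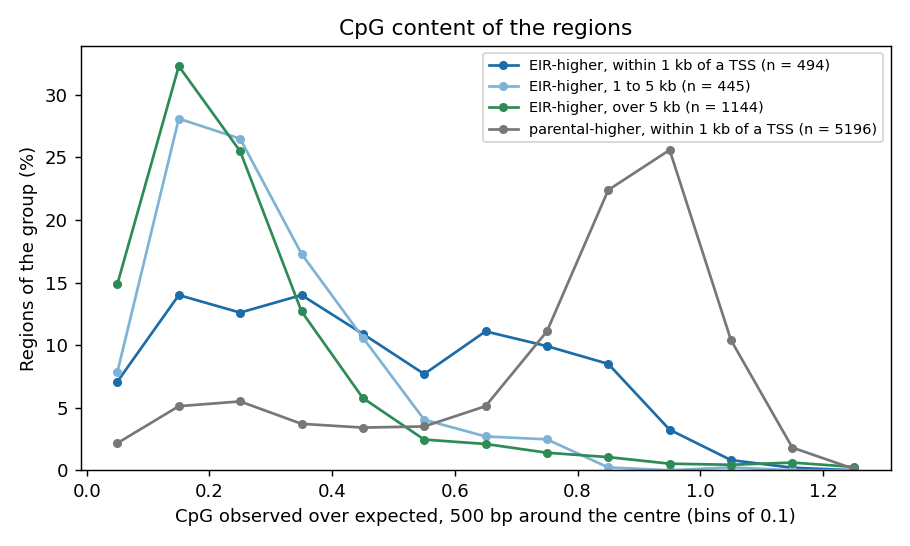
Observed over expected CpG in 500 bp around the region centre (horizontal axis, binned) as a percentage of each group. The members (dark blue) spread from low to high values, with 33.8% at or above 0.6, while parental-higher regions near TSSs (grey) peak at 0.9 to 1.0 and EIR-higher regions away from TSSs (light blue and green) below 0.3.

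Fixed short motifs were searched on both strands of the same 500 bp. The SP/KLF motif GGGCGG was in 42.5% of members (38.2 to 46.9), 74.8% of parental-higher regions near TSSs, 22.5% of EIR-higher regions 1 to 5 kb away and 62.4% of the windows around the 5′ ends of 20098 coding genes. The AP-1 motif TGANTCA was in 11.3% of members, above the 7.51% of parental-higher regions near TSSs by 3.83 points (1.22 to 7). It was in 16.9% of EIR-higher regions 1 to 5 kb away, a difference of -5.52 points (-10 to -1.07). The TEAD motif GGAATG was in 22.1% of members and 14.0% of parental-higher regions near TSSs, a difference of 8.11 points (4.54 to 12.1), and in 31.9% of EIR-higher regions over 5 kb away. The NFY motif GCCAAT was in 13.8% of members and 10.5% of parental-higher regions near TSSs, 3.26 points apart (0.366 to 6.67). Against all coding gene 5′ ends these 3 motifs were not raised in members. NFY was in 20.1% of those windows, and the members differed by -6.33 points (-9.15 to -2.97). For AP-1 (9.1%) and TEAD (19.5%) the differences were 2.24 points (-0.294 to 5.36) and 2.54 points (-0.937 to 6.44), with intervals that include 0. The groups also differed in GC content, as given above, and the part of base composition in these shares was not tested.

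The other motifs differed from parental-higher regions near TSSs by intervals that include 0. Their shares in members were 9.31% for the TATA box TATAAA, 7.49% for the ETS motif CCGGAAG, 9.51% for the E-box CACGTG, 3.64% for the forkhead motif TGTTTAC, 4.05% for the SOX motif ACAATGG and 0.607% for the full cyclic AMP response element TGACGTCA. In all coding gene windows these were 14.0%, 15.1%, 11.1%, 3.88%, 4.00% and 2.55%. The 3 members with TGACGTCA in the window were at CHRNA4, LINC01262 and PITPNA. The element of SST printed above lies in its member but outside the central 500 bp. None of the letter strings searched contains another.

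The RE1 search was added after the genes with the most tags had been seen. It used 16 positions, 14 of them specified, on both strands. Within the whole region, 26 members (5.26%, 3.62 to 7.60) had a match with at most 1 mismatch and 9 (1.82%) an exact one. In windows of equal size, 500 bp, the shares were 4.05% of members (2.64 to 6.17), 1.89% of parental-higher regions near TSSs (1.55 to 2.29) and 2.16% of coding gene 5′ ends (1.97 to 2.37). The member share exceeded that of parental-higher regions near TSSs by 2.16 points (0.692 to 4.31). As the search was prompted by some of these same members, that difference and its interval are a description only. Exact matches were in 1.42% of members (0.688 to 2.90), 0.154% of the parental-higher regions near TSSs and 0.209% of coding gene 5′ ends. They were also in 2.02% of EIR-higher regions 1 to 5 kb away and 1.4% of those farther away. The intervals of both differences from the members include 0.

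By tags, the share of members with RE1 is given as a description, since the search was prompted by the genes with the most tags. It was 0.722% below 20 tags (2 of 277 members), 4.05% at 20 to 30, 15.7% at 30 to 60 (8 of 51, 8.17 to 28.0) and 22.2% at 60 or more (4 of 18, 9 to 45.2). In parental-higher regions near TSSs it was 0.677%, 2.44%, 1.93% and 1.83% in the same classes. Over the whole region, 8 of the 18 members with at least 60 tags had a match with at most 1 mismatch, against 89 of 1857 parental-higher regions of that strength (4.79%), and 3 had an exact match against 4. RE1 was not particular to TSSs: the share in 500 bp was 6.07% of EIR-higher regions 1 to 5 kb away and 3.06% of those farther away, and the intervals of both differences from the members include 0.

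**Figure D5:**
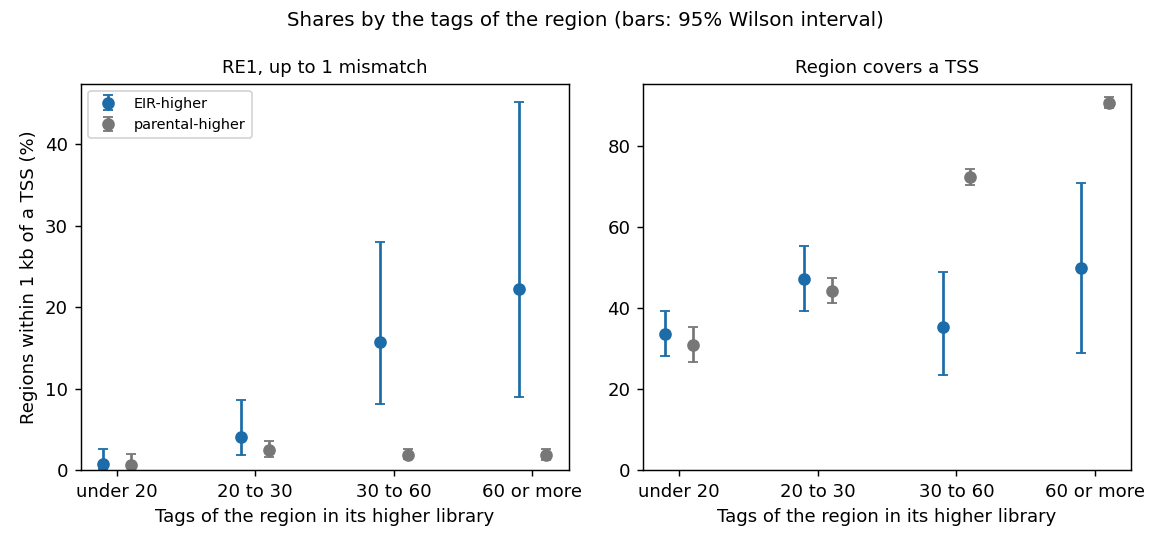
Share of regions near TSSs with an RE1 match of at most 1 mismatch in 500 bp (left) and share that cover a TSS (right), in percent, by the tags of the region in its higher library, with 95% Wilson intervals. EIR-higher regions (blue) run from 0.722% to 22.2% for RE1, in a search prompted by the strongest members, and parental-higher regions (grey) are at or below 2.44%, and for TSS cover the lists are close under 30 tags and apart above.

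Among the 26 members with RE1 in the region, 11 were at coding gene 5′ ends, 8 at internal coding TSSs and 7 at noncoding 5′ ends. Their median was 36.3 scaled EIR tags (25.7 to 66.7) and 14 parental tags (9 to 19), against 18.3 and 5 in the members without a match, and their median ratio was 2.81 (2.26 to 3.04) against 3.38. LHX3, a LIM homeobox gene of pituitary and motor neuron development, had 2 such members, one with an exact match at its 5′ end (39.6 scaled EIR tags and 14 parental tags) and one with 1 mismatch in its gene body (34.5 and 15). Others with a match were at the netrin receptor gene UNC5C (39.6 and 19), the cation channel gene TRPM3 (31.5 and 14), the glutamate receptor gene GRM4 (20.5 and 7), XKR4 (39.6 and 17), MGAT3 (30.8 and 9) and FBLL1 (21.3 and 8). The matches lay a median of 122 bp from the region centre. Members with a match were longer than those without, at a median of 653 bp (500 to 788) against 500 bp. The search covered the whole region and was prompted by the strongest members. The part of length in the tags above was not tested. A match is a description of sequence, and REST binding was not measured in the files used here.

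Members near coding genes touched 396 of 20090 coding genes, or 1.97%, while parental-higher regions touched 4670, or 23.2%. Both kinds were within 1 kb of a TSS of 109 genes, which is 27.5% of the 396 and close to the 23.2% of all coding genes with a parental-higher region. The gene lists below were read against these percentages.

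Of 137 genes of the homeobox, PAX and T-box families, 7 (5.11%) had a member, and 41 (29.9%) a parental-higher region. The 7 were LHX3, HOXB2, HOXA2 (28.6 and 11 tags), the forebrain gene DLX6 (26.4 and 6), the thyroid and lung regulator NKX2-1, the heart and forelimb regulator TBX5 and the eye gene SIX6, and of these only LHX3 also had a parental-higher region. Of 53 receptor tyrosine kinase genes, 4 (7.55%) had one: EPHA10, the VEGF receptor FLT1 (17.6 and 3), RET (17.6 and 5) and the Wnt receptor ROR2 (16.1 and 3). Of 159 genes of the extracellular matrix and integrin list, 8 (5.03%) had a member, among them COL6A1 (30.1 and 10), the collagen-binding integrins ITGA2 (24.9 and 8) and ITGA1 (22.0 and 8). That list also took in ITGB3BP (17.6 and 5), which encodes a centromere protein and not an integrin. The counts are small and were not tested.

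Among signalling genes, 4 of 89 Wnt and TGF-beta genes (4.49%) had a member, namely BMP7, GDF10 (15.4 and 4), SMAD3 (16.9 and 5) and WNT7A (16.9 and 4). Of 48 nuclear receptor genes 2 (4.17%) did, the thyroid hormone receptor THRB (21.3 and 6) and the retinoic acid receptor RARB (16.9 and 2, ratio 8.45, 2.08 to 73.8). Cadherins had 3 of 97 (3.09%): the epithelial genes CDH1 (19.8 and 6) and CDH3 (17.6 and 4), and CDH23 (16.1 and 3). Small GTPases and their regulators had 8 of 272 (2.94%), and cytokines, chemokines and growth factors had 2 of 142 (1.41%), CXCL12 (27.1 and 10) and the receptor IL1R1 (16.1 and 5).

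In the lists nearest to the study's own question the counts were 0 or 1, too few to set against 1.97%. Of 28 SWI/SNF subunit genes 1 (3.57%) had a member, SMARCA4 itself, with 16.9 scaled EIR tags and 4 parental tags (ratio 4.22, 1.44 to 16.8) at an internal TSS in an intron (chr19:11144973-11145473), 73517 bp from the canonical start. SMARCA4 also had a parental-higher region within 1 kb of one of its TSSs, as did 16 of the 28 genes. Of 29 Polycomb and H3K27 demethylase genes 1 (3.45%) did, the PRC1 subunit gene BMI1 (22.0 and 7), which also had a parental-higher region, overlapping its member. There were 0 members among 17 BCL2 family genes, of which 9 had a parental-higher region, and 0 at ARID1A, BCL2, SMARCA2 and EZH2.

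The remaining lists rested on 1 or 2 genes or lay below 1.97%. Forkhead, SOX, GATA and KLF genes had 2 of 96 (2.08%, SOX15 and SOX8), AP-1 and Hippo genes 1 of 34 (AMOTL2, 18.3 and 6 tags), and keratins, claudins and desmosome genes 2 of 96 (2.08%), the claudin CLDN5 with 2 members (27.1 and 10, and 16.9 and 4) and PKP1 (21.3 and 8). Voltage-gated channels had 2 of 83 (2.41%), among them CACNA1H, which also had a parental-higher region. Solute carriers had 7 of 383 (1.83%), led by SLC16A9 (63.0 and 32), and C2H2 ZNF genes 7 of 578 (1.21%). G protein coupled receptors had 2 of 648 (0.309%), GRM4 and GPR137 (16.9 and 3). Cytosolic ribosomal protein genes had 1 of 83 (1.2%), RPL3 (22.0 and 7), and histone genes 0 of 92.

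Members often had a region of the opposite direction close by. Within 5 kb of 100 members (20.2%, 16.9 to 24) lay a parental-higher region, against 7.36% of the other 1589 EIR-higher regions, a difference of 12.9 points (9.29 to 16.8). How far this follows from the number of parental-higher regions near TSSs was not tested. In 23 members (4.66%) they overlapped, by a median of 129 bp and at most 455 bp, with 12 at coding 5′ ends, 8 at internal coding TSSs and 3 at noncoding genes. At MAPK8IP2, which encodes a JNK scaffold protein, the member had 68.2 scaled EIR tags and 34 parental tags, and the parental-higher region sharing 296 bp with it had 22.0 and 79. At PITPNA, a phosphatidylinositol transfer protein gene, a member with 18.3 and 4 tags shared 455 bp with a region of 28.6 and 89. At JAZF1 the values were 33.0 and 13 against 5.1 and 43, and at TRIOBP 27.1 and 6 against 49.8 and 116. At each of these loci, then, overlapping windows differed in opposite directions. The tags belong to whole windows and were not counted in the shared bases alone. At PITPNA the shared part was most of the 500 bp member. That member held only 4 parental tags in all, so most of the 89 of the other region lay outside the shared part. These 4 loci were chosen after their values were seen.

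By chromosome, 52 members (10.5%) were on chromosome 10, which holds 3.69% of coding genes, 6.64% of parental-higher regions near TSSs and 24.7% of the other EIR-higher regions. The members' share differed from that of the other EIR-higher regions by -14.1 points (-17.4 to -10.5). Members on chromosome 10 had a median ratio of 3.38 (3.05 to 3.85) and the other members 3.38 (3.26 to 3.38). Large assembly gaps, of 1 Mb or more, had 16 members (3.24%) closer than 1 Mb, 15 of them at noncoding genes (13.5% of 111, against 0.261% of 383 coding members). Their part in the results at noncoding genes was not tested. Without these 16 the share of members at coding genes was 79.9%.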

How the data were processed

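SMARCA4 was measured by anti-FLAG ChIP-seq in 1 parental and 1 EIR library, grouped by the sample labels. The authors aligned reads to hg19 with Bowtie 0.12.9 and called regions with HOMER (histone style, the other library as control, FDR below 5%). The deposited parental tags are whole counts, with 0.5 in place of 0 in the EIR-higher list. The deposited EIR values are a signal, tags scaled to the parental total: 97.3% of 75 distinct values were within 0.05 of a multiple of 0.733, which gave whole EIR tags. The p-value of the deposited lists was used for 1 alternative. The authors' fold changes and scores in the lists were not used.

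Regions were joined to TSSs of GENCODE release 44 on GRCh37, the sequence of hg19. Coding members have a coding gene's TSS within 1 kb, and 5′ end members that gene's outermost base. Members were named by rule: the 10 with most tags and the 10 with the largest ratio, 3 of each per class, the 5 with most tags away from assembly gaps, members with no parental tag, those at the 1 kb limit, up to 4 examples by tags per gene list, and SMARCA4, ARID1A, BCL2, SMARCA2 and EZH2. Members named for RE1, overlap, number per gene or the lower scale were chosen after their values were seen. The members, the 20 gene lists and the rules were chosen with earlier results of these data known. Shares carry Wilson intervals, their differences Newcombe intervals, medians order-statistic intervals and tag ratios exact Clopper-Pearson intervals (Python 3.11.15, scipy 1.17.1, pysam 0.24.0). Regions are not replicates, and with 1 library per group there is no test. Library totals were computed from the deposited normalized tags. Whether duplicate reads were removed is not given in the sources used here. Some members named by the rule are not reported here. Scripts were tested on simulated data.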

Additional observations from a re-analysis of the deposited data

How the results depend on the processing

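Of 108 alternative values, 71 stayed within the interval of the value given above or, for the count, within 1.5 times of it. No paired analysis was possible because each group has 1 library and no result comes from a test. The number of members fell from 494 to 149 with a ratio of at least 4, 151 with a p-value of at most 1e-06, 38 with the EIR library scaled 1.5 times lower and 307 with canonical TSSs. The share at coding genes (77.5%) became 70.9% at p 1e-06, 71.1% at the lower scale, 69.9% with basic transcripts, 70.0% with canonical TSSs and 62.8% with coding set by transcript type. The 5′ end share of coding members (46.0%) became 40.4% at a ratio of 4, 35.5% at p 1e-06, 22.2% at the lower scale, 63.0% with basic transcripts, 72.6% with canonical TSSs and 56.1% with the 5′ end at the canonical TSS, and that of noncoding members (87.4%) became 94.7%, 95.7% and 73.9% under the last 3. The share covering a TSS (38.5%) became 34.2% at the lower scale, 50.4% with a 500 bp window, 29.0% with 2 kb, 44.3% from the centre, 34.1% with basic transcripts, 26.1% with canonical TSSs and 47.3% at 20 to 30 tags, an alternative chosen after seeing the data. The median ratio (3.38) became 4.63 at a ratio of 4, 4.58 at p 1e-06, 4.77 at the lower scale, 3.22 with canonical TSSs and 2.98 with 1 tag added to both. The median GC content (59.5%) became 57% at the lower scale and 58.3% with 2 kb. The share with a parental-higher region within 5 kb (20.2%) became 14.1% at a ratio of 4, 13.9% at p 1e-06, 7.89% at the lower scale and 10.9% within 1 kb. The RE1 share (4.05%), also chosen after seeing the data, became 1.42% with no mismatch. The count at a higher ratio, a smaller p, a lower scale or canonical TSSs falls by construction. So does the median ratio with 1 tag added, while a required ratio of 4 raises it. The share with a parental-higher region within 1 kb, and the RE1 share with no mismatch, cannot rise. A region that covers a TSS is a member in any window, so 500 bp cannot lower that share and 2 kb cannot raise it. Otherwise the cause was not tested.

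Tags and ratio are linked by the selection, since a weak region passed the call with a high ratio or not at all. Members at MIR3687, ROCK1P1, SYT15, MIR1268A, IQSEC3P1 and the mitochondrial pseudogenes MTND2P28 and MTATP6P1 have near copies elsewhere, so their tags depend on how the aligner treated reads with several matches. Regions bound in both libraries without a difference were not analysed here, and the lists hold no replicate.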
